A study of Homo sapiens with 14 samples.

Results

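The chains of the T cell receptor and of its CD3 partners were followed through mixtures of a T cell line and a kidney line. The 7 genes were CD3D, CD3E, CD3G, CD247, TRAC, TRBC1 and TRBC2. They were picked by name out of the 58440 genes in the count tables, and all 7 were found. The measurements were RNA-seq counts of 14 libraries, 2 for each of 7 conditions, from HEK-293T cells, Jurkat cells and their mixtures at 20%, 40%, 50%, 60% and 80% Jurkat. HEK-293T (called HEK here) is an adherent line derived from human embryonic kidney. Jurkat grows in suspension and was derived from a T cell leukemia. Each mixture held 1000000 cells, and the labels give no treatment in any condition. The records name the paired libraries of a condition technical replicates, so SD and p-values describe the spread between technical libraries and not between cultures.

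The T cell receptor is a surface complex. Its alpha and beta chains bind the antigen, and the constant part of each chain is encoded by TRAC (alpha) and by TRBC1 or TRBC2 (beta). These chains carry no signalling tail of their own. The CD3 chains gamma, delta and epsilon, encoded by CD3G, CD3D and CD3E, and the zeta chain, encoded by CD247, bring the tyrosine motifs that the kinase LCK phosphorylates when antigen is bound. The complex leaves the endoplasmic reticulum only when its chains are assembled together. A mature T cell of the alpha beta lineage makes all of them, and kidney epithelial cells lack the complex.

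Gene counts per library ranged from 4468822 to 28303668. Levels are given as counts per 1000000 gene counts (CPM), with the synthetic ERCC spike-in RNAs left out of the total. Between 0.674% and 7.65% of a library's counts fell on spike-ins. A count of 3, below which a level was treated as background, came to between 0.106 and 0.671 CPM. These limits cover counting error only. The file names divided the libraries into a group of 8, with both pure Jurkat libraries, and a group of 6, with both pure HEK libraries. Both libraries at 20% Jurkat were in the group of 6, and those at 60% and 80% were in the group of 8. The pairs at 40% and 50% were split, with the second library at 50% in the group of 6. The group thus followed the percentage of Jurkat cells in most conditions. In the pure libraries the line and this group cannot be told apart, and what the groups stand for was not stated. Levels of other markers were set beside the labels of the lines. These marker lists were chosen with earlier results of these data known, so they are not an independent check of the labels. Of 10 Jurkat markers, 9 were tested and 9 were higher in pure Jurkat, among them SPN (the sialophorin CD43) at 1652 ± 72.7 CPM and BCL11B (a T lineage regulator) at 558 ± 28.9 CPM (SD, n = 2). Of 10 HEK markers, 9 were tested and 9 were lower in pure Jurkat, among them the keratin KRT18 at 33.1 ± 1.17 CPM in pure HEK.

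In the GRCh38 genome, 3 of the CD3 genes lie side by side on chromosome 11 within 50432 bases. CD3E is at chr11:118304730-118316175 on the plus strand, CD3D at chr11:118339075-118342705 on the minus strand and CD3G at chr11:118344344-118355161 on the plus strand. The starts of CD3D and CD3G face away from each other with 1639 bases between the genes. CD247 is alone at chr1:167425027-167518640 on the minus strand, where it overlaps POU2F1 on the opposite strand and 3 long noncoding RNA genes. TRAC is at chr14:22547506-22552156, TRBC1 at chr7:142791694-142793368 and TRBC2 at chr7:142801041-142802748, all on the plus strand. The counting was not stated to use strand, so reads in the overlap of CD247 and POU2F1 cannot be assigned with certainty.

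TRBC1 and TRBC2 lie 7673 bases apart and are near-identical copies. Their first exons, both of 387 bases and coding, differed at 7 bases (98.2% identity). The first 60 bases of each exon are shown because they hold 3 of these differences, set in capitals, at chr7:142791694-142791753 for TRBC1 and chr7:142801041-142801100 for TRBC2.
TRBC1: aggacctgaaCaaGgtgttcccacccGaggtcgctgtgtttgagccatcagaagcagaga
TRBC2: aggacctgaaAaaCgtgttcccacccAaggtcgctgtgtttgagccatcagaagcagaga
Reads were 40 bases long. Of the 721 windows of 40 bases in the TRBC1 transcript, 210 (29.1%) also occurred in TRBC2, and of the 719 windows in TRBC2 the same 210 made up 29.2%. In the 3′ untranslated parts 0 of 191 and 0 of 183 windows were shared. RSEM divides a read that matches both genes, so the split between TRBC1 and TRBC2 is less certain than their sum.

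RefSeq promoter windows, from 250 bases before to 50 bases after a gene's start, were matched for 2 of the 7 genes, CD3D and CD247. The 250 bases before each RefSeq start are shown for these 2 genes because they were the only members with a matched window. The RefSeq start of CD247 lies inside the gene span given above, which runs to 167518640, so part of its window overlaps the gene. Capitals mark matches on either strand to TGTGGT, the core bound by RUNX factors, and to AGGAAG, a core bound by ETS factors. The positions are chr11:118342706-118342955 for CD3D and chr1:167518530-167518779 for CD247, both on the minus strand of GRCh38.p14.
CD3D: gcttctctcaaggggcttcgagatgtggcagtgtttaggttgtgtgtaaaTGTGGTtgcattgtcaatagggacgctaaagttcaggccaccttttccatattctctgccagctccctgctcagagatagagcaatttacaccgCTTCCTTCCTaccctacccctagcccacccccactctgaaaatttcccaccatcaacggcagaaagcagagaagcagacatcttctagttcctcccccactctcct
CD247: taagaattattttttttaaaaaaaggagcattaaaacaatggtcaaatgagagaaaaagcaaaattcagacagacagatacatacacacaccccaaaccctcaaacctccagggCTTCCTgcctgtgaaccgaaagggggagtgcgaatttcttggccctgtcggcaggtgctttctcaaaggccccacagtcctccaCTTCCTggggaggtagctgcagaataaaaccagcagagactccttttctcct
The CD3D window held 1 RUNX match and 2 ETS matches that overlap each other. The CD247 window held 2 ETS matches and 2 matches to the E-box CANNTG. Of 35116 promoter windows of the same length, 13.1% held TGTGGT, 33.6% held AGGAAG and 68.7% held CANNTG. Neither window held the GATA core AGATAA (10.3% of windows) or the TATA box letters TATAAA (11.5%).

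The first question was how far the 7 transcripts separate the pure lines. All 7 were abundant in pure Jurkat cells and at or near background in pure HEK cells. In the 2 pure HEK libraries CD3D had 5 and 4 counts, CD3E had 3 and 2, and CD247 had 3 and 2. CD3G had 16 and 10 counts, the most of the 7, and TRBC1 had 7 and 3. TRAC had 2 and 0 counts and TRBC2 had 0 in both. The summed level of the 7 genes was 3.81 and 1.39 CPM in the pure HEK libraries, against 1341 ± 169 CPM in pure Jurkat (SD, n = 2).

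Among the signalling chains, CD3G stood at 379 and 511 CPM in the 2 pure Jurkat libraries and CD3D at 260 and 238 CPM. CD247 stood at 73.6 and 82.8 CPM, and CD3E at 34.5 and 43.8 CPM. In no case did a pure HEK library come near these levels. Of the antigen-binding chains, TRBC1 stood at 343 and 437 CPM, TRAC at 96.7 and 110 CPM and TRBC2 at 34.5 and 38.0 CPM. CD3G and TRBC1 differed most in CPM between the 2 Jurkat libraries.

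From the pooled counts of each line, TRAC was 1283-fold higher in Jurkat (95% exact interval 354 to 10609) and TRBC1 979-fold (532 to 2043). CD3D was 677-fold higher (356 to 1481), CD3G 431-fold (294 to 661) and CD247 389-fold (166 to 1200). The fold of CD3E was 196 (83.5 to 608). TRBC2 was at least 114-fold higher, counted against a floor of 3 counts in a HEK library. These intervals overlap widely, since they rest on at most 26 HEK counts, and they cover counting error only.

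edgeR's quasi-likelihood test over 15794 genes called 7 of the 7 higher in pure Jurkat, where 19% of all tested genes were called higher. The log2 fold changes were 9.55 (SE 0.38) for CD3D, 7.70 (SE 0.42) for CD3E, 8.85 (SE 0.54) for CD3G and 8.69 (SE 0.40) for CD247. For TRAC it was 10.27 (SE 0.66) and for TRBC1 10.03 (SE 0.58). The fitted value of TRBC2, 11.48, depends on the prior count because its HEK counts are 0. The Benjamini-Hochberg adjusted p of the 7 genes lay between 0.00064 and 0.00074. The median log2 fold change was 9.55 over the 7 genes and -0.07 over all genes tested. With the Bonferroni adjustment 2 of the 7, CD3D and CD247, were called, and 0.272% of all genes were called higher.

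Levels of different genes were compared per length, in TPM. Whether counts scale with transcript length in these oligo-dT primed libraries was not tested. In pure Jurkat the mean TPM was 574 for CD3G, 515 for TRBC1, 374 for CD3D, 106 for CD247, 105 for TRAC, 48.1 for TRBC2 and 28.4 for CD3E. The single libraries gave 456 and 693 TPM for CD3G and 459 and 572 TPM for TRBC1, so the order of these 2 genes cannot be set. CD247 (101 and 112 TPM) and TRAC (99.4 and 111 TPM) overlapped as well. CD3D, at 382 and 365 TPM, lay below both libraries of CD3G and TRBC1 and above all libraries of the other 4 genes. CD3E, at 25.4 and 31.4 TPM, lay below TRBC2 at 46.3 and 50.0 TPM. The order depends on the scale. In CPM, CD3E (34.5 and 43.8) overlapped TRBC2 (34.5 and 38.0), and TRAC (96.7 and 110) lay above CD247 (73.6 and 82.8). The cDNA was primed with oligo-dT, and the effective length RSEM used in the 2 pure Jurkat libraries was 801 and 696 bases for CD3G and 656 and 616 for CD3D, so TPM carries this variation too.

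The receptor's other genes were examined from lists of the pathway. Of the 3 other constant genes, TRGC2 (gamma chain) was tested and was higher in Jurkat, with a log2 fold change of 7.13 (SE 0.81) at 6.48 ± 3.15 CPM. TRDC, the delta constant gene, had 0 counts in all libraries. Among 4 genes of the pre-T-cell receptor and of receptor gene recombination, 1 was tested, DNTT (the transferase that adds bases at the junctions), and it was higher in Jurkat at 48.8 ± 2.29 CPM against 0.278 ± 0.206 CPM. PTCRA, RAG1 and RAG2 had at most 6 counts in any pure library and were not tested.

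Of 11 co-receptors and other surface partners, 5 were tested and 5 were higher in Jurkat. CD2, an adhesion receptor, reached 105 ± 6.23 CPM and CD28, the costimulatory receptor, 34.9 ± 1.26 CPM. CD5, a modulator of receptor signalling, reached 17.1 ± 3.28 CPM. TRAT1, an adaptor bound to the receptor, had 21.1 ± 19.1 CPM, a spread nearly as large as its mean. The co-receptor genes CD4, CD8A and CD8B were too low to be tested, with at most 25 counts in a pure library.

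Of 20 genes of proximal receptor signalling, all 20 were tested, 16 were higher in Jurkat, 0 were lower and 4 did not pass the test. LCK, the kinase that phosphorylates the CD3 tails, had a log2 fold change of 7.00 (SE 0.30), and ZAP70, the kinase that docks on them, of 8.48 (SE 0.42). The adaptors LAT and LCP2 had 4.88 (SE 0.28) and 8.34 (SE 0.39). The phosphatase PTPRC (CD45), at 1517 ± 217 CPM, had 11.84 (SE 0.65). FYN, PLCG1, CSK and PAG1 did not pass, with log2 fold changes of 0.33, 0.15, 0.65 and 0.80 and adjusted p of 0.29, 0.61, 0.051 and 0.090. The median over the 20 genes was 5.57, beside -0.07 over all genes.

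Markers of other blood cells were examined in the same way. Of the B cell genes, CD79A and CR2 were higher in Jurkat. MS4A1, the gene of CD20, had at most 1 count in a pure library. Of 8 natural killer genes 3 were tested, with NKG7 and PRF1 higher and NCAM1 lower in Jurkat (23.6 ± 4.14 CPM in HEK). Their summed level was 21.4 to 26.9 CPM in HEK and 6.49 to 9.35 CPM in Jurkat, and KLRF1 was at 0. None of 8 myeloid genes was high enough to be tested, with a sum of 0.952 to 1.02 CPM in HEK and 0.645 to 1.12 CPM in Jurkat, and MPO, ELANE and CD163 at 0 in all libraries.

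**Figure D1:**
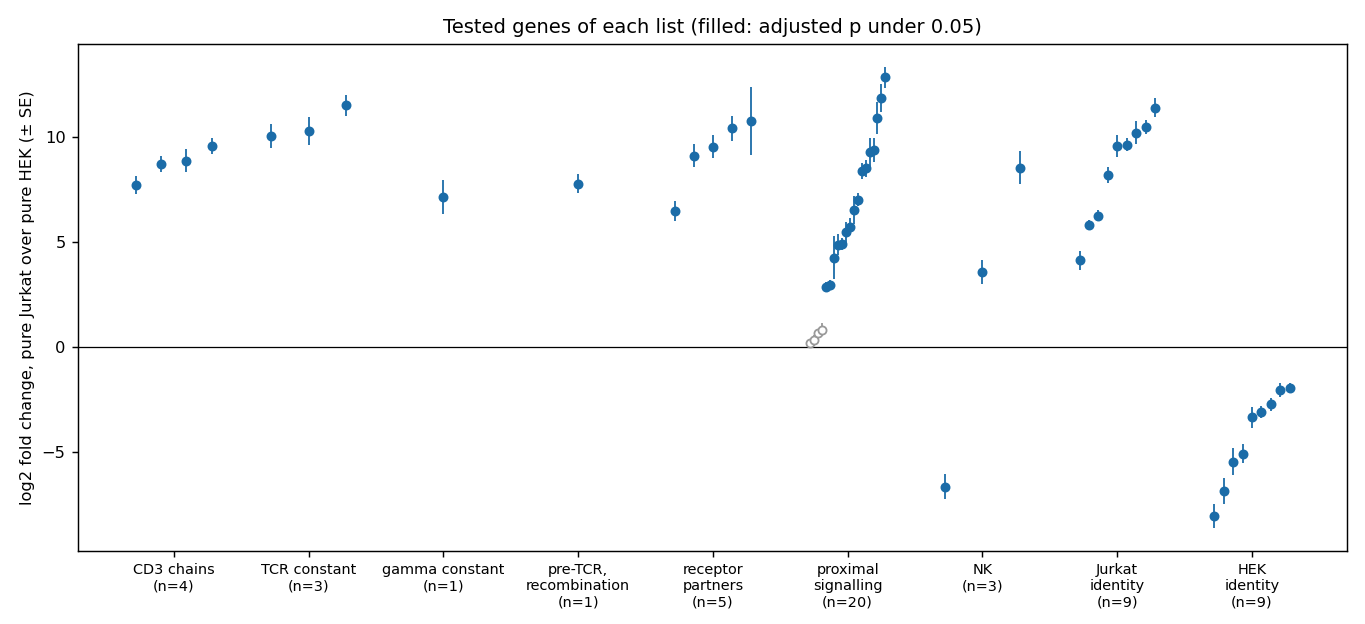
Log2 fold change of pure Jurkat over pure HEK (y axis, with standard errors from edgeR, n = 2 libraries per line) for the tested genes of the lists shown (x axis). Filled points passed an adjusted p of 0.05. All 7 receptor chains lie above 7, and 4 of the 20 signalling genes lie near 0.

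Variable, joining and diversity segments of the receptor chains are counted as separate genes. Of 54 alpha variable segments 3 had over 3 counts in a pure Jurkat library. The highest was TRAV19 at 2.14 ± 0.172 CPM, followed by TRAV17 at 1.24 ± 0.152 CPM and TRAV18 at 0.627 ± 0.253 CPM. The highest beta variable segment was TRBV28, with 18 and 6 counts in pure Jurkat and 59 and 21 at 80% Jurkat, and it was below the filter of the test. TRBV7-6 and TRBV12-3 reached 0.819 and 0.484 CPM. Of the gamma segments, TRGV2 (11.0 ± 7.33 CPM) and TRGV4 (3.24 ± 0.495 CPM) were higher in Jurkat, and delta variable, joining and diversity segments had 0 counts in all libraries. Joining segments had at most 1 count each in the pure Jurkat libraries.

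The nearest protein-coding genes on each side of the receptor loci had smaller fitted differences, differed in the other direction or were too low to be tested. UBE4A, 4439 bases beyond CD3G, stood at 22.0 ± 7.71 CPM in HEK and 29.3 ± 17.7 CPM in Jurkat and did not pass the test (adjusted p = 0.34). MPZL2, on the other side of the CD3 cluster, was at 0.410 and 0.385 CPM and was not tested. Beside CD247, CREG1 fell by 1.42 on the log2 scale (adjusted p = 0.0060), from 38.4 to 12.2 CPM. GPA33, 258548 bases away on the far side of CD247, rose from 0 to 1.99 ± 0.987 CPM. The fitted log2 fold change of GPA33, 7.26 (SE 1.12), lay below the 8.69 of CD247 but depends on the prior count because its HEK counts are 0. DAD1, next to TRAC, had a log2 fold change of -0.68 (adjusted p = 0.067). EPHB6, a kinase-dead ephrin receptor gene beyond TRBC2, rose by 4.48 on the log2 scale, from 1.14 ± 0.260 to 22.4 ± 0.0187 CPM. OR4E1 (873688 bases from TRAC) and PRSS2 (17130 bases from TRBC1) had at most 1 count in a pure library.

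The second question was how the 7 transcripts follow the percentage of Jurkat cells. The summed level was 60.4 and 66.5 CPM at 20% Jurkat and 193 and 186 CPM at 40%. It was 206 and 276 CPM at 50%, 284 and 379 CPM at 60% and then 590 and 670 CPM at 80%. Pure Jurkat gave 1222 and 1461 CPM, so that each pair of libraries lay above the pair of every lower percentage. As a part of the pure Jurkat mean, the condition means were 4.73%, 14.1%, 18.0%, 24.7% and 47.0%, below the percentage of Jurkat cells in every mixture. Beside this, pure HEK libraries had 97.3 and 147 gene counts for each spike-in count and pure Jurkat libraries 12.1 and 12.3, a ratio of the means of 10.0.

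Pearson's r between the summed CPM and the percentage of Jurkat cells was 0.893 over 14 libraries (permutation p = 1e-05, the smallest that 100000 permutations can give, adjusted 2e-05 over 16 relations) and Spearman's rho was 0.992 (permutation p = 1e-05, adjusted 2.3e-05). The median percentage is at the same distance from all 4 pure libraries, and without them r was 0.954 and rho 0.985 over 10 libraries (permutation p = 2e-05 for both, adjusted 0.00032). Within the 8 libraries of the first file name group r was 0.943 (exact permutation p = 0.0002), and within the 6 of the second it was 0.976 (exact permutation p = 0.0056). Permutations over libraries treat each library as a separate unit, though the libraries of a condition are technical replicates. Over the means of the 7 conditions r was 0.900 (exact permutation p = 0.0004). Of the single genes, CD3D had the highest r (0.919) and CD3G the lowest (0.822) over 14 libraries. In CPM alone, fewer cells of a line and less RNA per cell cannot be told apart.

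**Figure D2:**
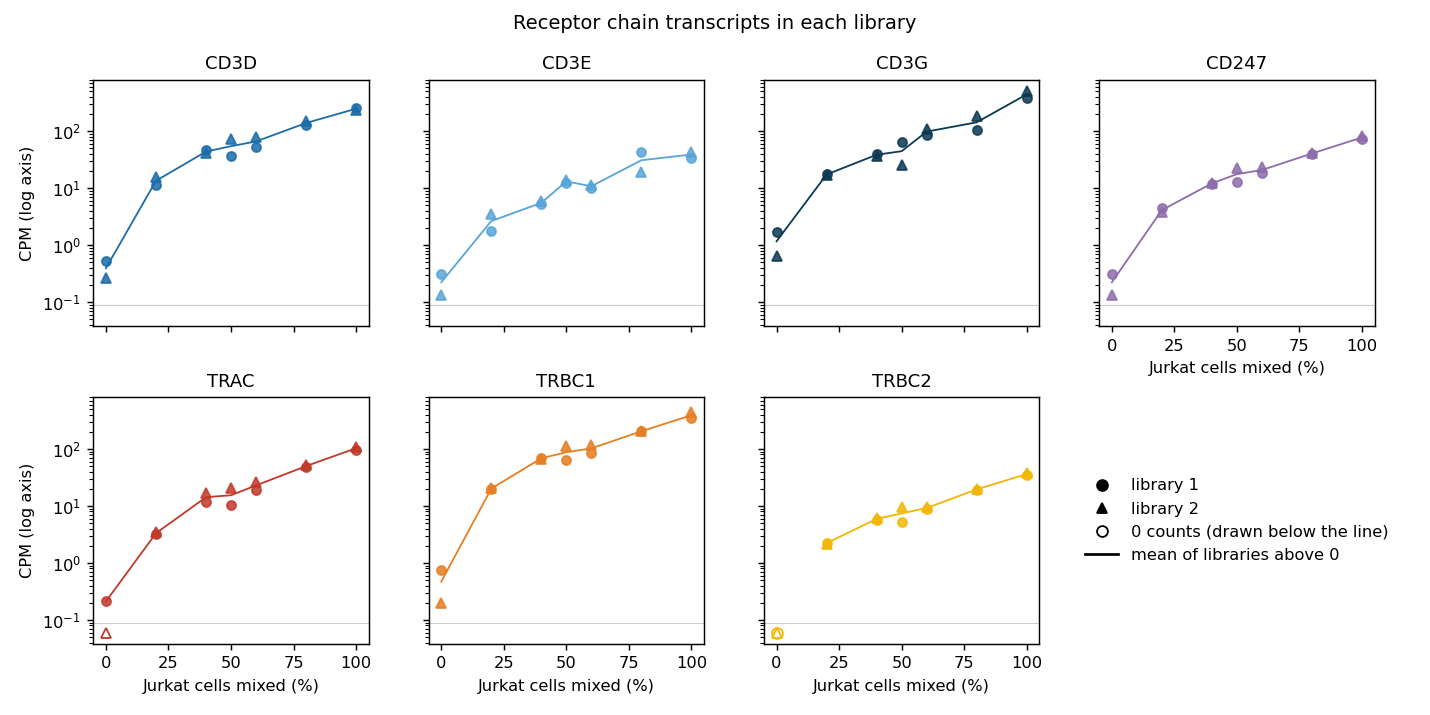
CPM on a log axis (y) against the percentage of Jurkat cells (x) for each of the 7 genes and 14 libraries, with lines through the means. The steepest step on this axis is from 0% to 20% Jurkat, and the libraries at 50% differ most in CD3G (63.8 and 25.7 CPM).

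Each chain was followed through the mixtures. CD3D, the delta chain, was at 11.2 and 15.9 CPM at 20% Jurkat, 47.4 and 40.8 at 40%, 37.4 and 72.3 at 50%, 53.8 and 79.0 at 60% and then 130 and 150 at 80%. Its libraries at 50% overlapped those at 40% and those at 60%, and were apart at the other steps. CD247, the zeta chain, was at 4.48 and 3.82 CPM at 20%, 11.9 and 12.5 at 40%, 12.7 and 22.7 at 50%, 18.5 and 23.4 at 60% and then 39.3 and 42.3 at 80%. Of its neighbouring conditions, 50% and 60% overlapped and the others did not.

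CD3G, the gamma chain, was at 18.0 and 16.9 CPM at 20%, 40.7 and 36.9 at 40%, 63.8 and 25.7 at 50%, 86.7 and 111 at 60% and then 105 and 182 at 80%. The second library at 50% had less CD3G than either library at 40%. CD3E, the epsilon chain, was at 1.78 and 3.54 CPM at 20%, 5.24 and 5.87 at 40%, 12.4 and 14.0 at 50%, 10.3 and 11.5 at 60% and then 42.6 and 19.6 at 80%. Both libraries at 50% lay above both at 60%, and the first library at 80% lay at 109% of the pure Jurkat mean while the second lay at 50.1%.

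TRAC, the alpha chain, was at 3.16 and 3.48 CPM at 20%, 11.6 and 16.9 at 40%, 10.6 and 20.2 at 50%, 19.2 and 26.7 at 60% and then 48.5 and 51.5 at 80%. TRBC1 was at 19.5 and 20.7 CPM at 20%, 70.4 and 66.8 at 40%, 63.7 and 111 at 50%, 86.4 and 118 at 60% and then 205 and 204 at 80%. TRBC2 was at 2.28 and 2.17 CPM at 20%, 5.75 and 6.09 at 40%, 5.25 and 9.57 at 50%, 8.74 and 9.64 at 60% and then 18.9 and 20.1 at 80%. In all 3 receptor chains the second library at 50% was the higher one and the libraries at 50% spanned those at 40%.

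Each step between neighbouring percentages was tested with edgeR over 19129 genes in 1 fit of all 14 libraries, so that neighbouring steps share libraries. From 0% to 20% Jurkat 7 of 7 genes rose, against 0.941% of all genes called higher. The libraries of all 7 were apart (2 above the other 2), as were those of 18.2% of all genes tested. The log2 differences ran from 3.68 (SE 0.61, adjusted p = 0.0099) for CD3E to 5.60 (SE 0.44, adjusted p = 6.1e-05) for TRBC1, leaving aside TRBC2, which started at 0. Without the second pure HEK library 5 of 7 were called, CD3E and CD3G being lost, and without the second library at 20% CD3E was lost. From 20% to 40% 0 of 7 were called and 0% of all genes were called higher. The libraries of all 7 genes were apart, as were those of 33.7% of all genes. There the log2 differences ran from 0.99 (CD3E) to 2.02 (TRAC), with adjusted p from 0.10 to 0.56. DESeq2 called 5 of the 7 at this step, CD3D, CD247, TRAC, TRBC1 and TRBC2, and 0.549% of all genes as higher. edgeR with no low count filter called the same 5 and 0.701% of all genes as higher. Without the first library at 50% edgeR called 2, and without the second 1.

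From 40% to 50% and from 50% to 60%, 0 of 7 genes were called and 0% of all genes were called higher. The libraries did not overlap for 2 of 7 genes, CD3E and CD247, at the first of these steps (13.9% of all genes). At the second they did not overlap for CD3G (14.3% of all genes) and, in the opposite direction, for CD3E. The 14.3% covers genes higher at 60%, and the share apart in the opposite direction was not computed. From 60% to 80% 0 of 7 were called against 0.0157% of all genes called higher, with adjusted p from 0.14 to 0.70. The libraries of 6 of 7 genes were apart, as were those of 20.5% of all genes. DESeq2 called 6 of 7 there, all but CD3G, and 1.52% of all genes as higher. From 80% to 100% 6 of 7 rose against 7.65% of all genes called higher, with log2 differences from 0.96 (SE 0.28, adjusted p = 0.028) for CD3D to 1.76 (SE 0.47, adjusted p = 0.016) for CD3G. CD3E had 0.45 (SE 0.36, adjusted p = 0.38). The libraries of the 6 genes that rose were apart, as were those of 22.8% of all genes. Without the first library at 80% 0 were called, without the second 1, and without the second pure Jurkat library 0.

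The third question was whether a level in a mixture was the sum of its parts. For every mixed library the expected CPM was computed from the pure means and from the Jurkat share of the RNA, which was fitted over 9211 other genes. This share was 4.02% and 3.58% at 20% Jurkat, 6.30% and 7.12% at 40%, 16.6% and 7.51% at 50%, 23.4% and 12.9% at 60% and then 36.6% and 33.7% at 80%. At 50% and at 60% the share differed more between the libraries of 1 condition than the means of these conditions differed.

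The median of observed over expected CPM in the 10 mixed libraries was 1.74 for CD3D, above 1 in 8 of 10 libraries. It was 1.96 for CD3E (9 of 10), 1.48 for CD247 (9 of 10) and 0.968 for CD3G (4 of 10). For TRAC it was 1.38 (6 of 10), for TRBC1 1.49 (8 of 10) and for TRBC2 1.66 (9 of 10). The log2 difference from expectation was 0.96 (SE 0.40) for CD3D, 1.10 (SE 0.38) for CD3E, 0.86 (SE 0.37) for CD247 and 0.11 (SE 0.27) for CD3G. It was 0.63 (SE 0.43) for TRAC, 0.94 (SE 0.39) for TRBC1 and 1.09 (SE 0.41) for TRBC2. The edgeR test called 0 of 7, with adjusted p from 0.56 to 0.97, and 0.0366% of all genes, which came to 7 genes, all lower. At an unadjusted p under 0.05 there were 5 of the 7 genes, all higher, beside 2.75% of all genes higher, and the median difference was 0.94 over the 7 genes and 0.04 over all genes.

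With the share of RNA taken from the cell percentages and the ratio of 10.0 between HEK and Jurkat in gene counts per spike-in count, 2 of 7 passed, CD3D (log2 difference 1.19, adjusted p = 0.049) and CD247 (1.10, adjusted p = 0.047), and 0.0784% of all genes were called higher. This share was 2.43% at 20% Jurkat, 6.23% at 40%, 9.06% at 50%, 13.0% at 60% and 28.5% at 80%, below the mean fitted share in every mixture. The authors report a lower ratio between the lines from the spike-ins. A lower ratio gives a larger Jurkat share and a higher expected level of these genes, and that setting was not run. With the share taken from other genes high in Jurkat, a setting chosen after the values were seen, 0 of 7 passed and the log2 differences ran from -0.01 for CD3G to 0.95 for CD3E.

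The 7 genes were also set beside 196 other genes of the same kind, those with at least 20 CPM in pure Jurkat and at least 32 times the pure HEK level plus 0.2 CPM. This rule was chosen after the values were seen and the comparison is a description. The median of the 196 genes was 3.81% and 3.95% of the pure Jurkat mean at 20% Jurkat, 8.81% and 8.83% at 40%, 12.3% and 11.6% at 50%, 17.9% and 17.2% at 60% and then 37.1% and 35.7% at 80%. CD3D, CD3E, CD247, TRBC1 and TRBC2 were above this median in 10 of 10 mixed libraries, TRAC in 7 and CD3G in 6. CD3E and TRBC2 were above the upper quartile in 9 of 10, CD3D, CD247 and TRBC1 in 8, TRAC in 3 and CD3G in 1. The CD3G percentile among the 196 genes ran from 9.69 to 76.5, the widest range of the 7 genes.

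**Figure D3:**
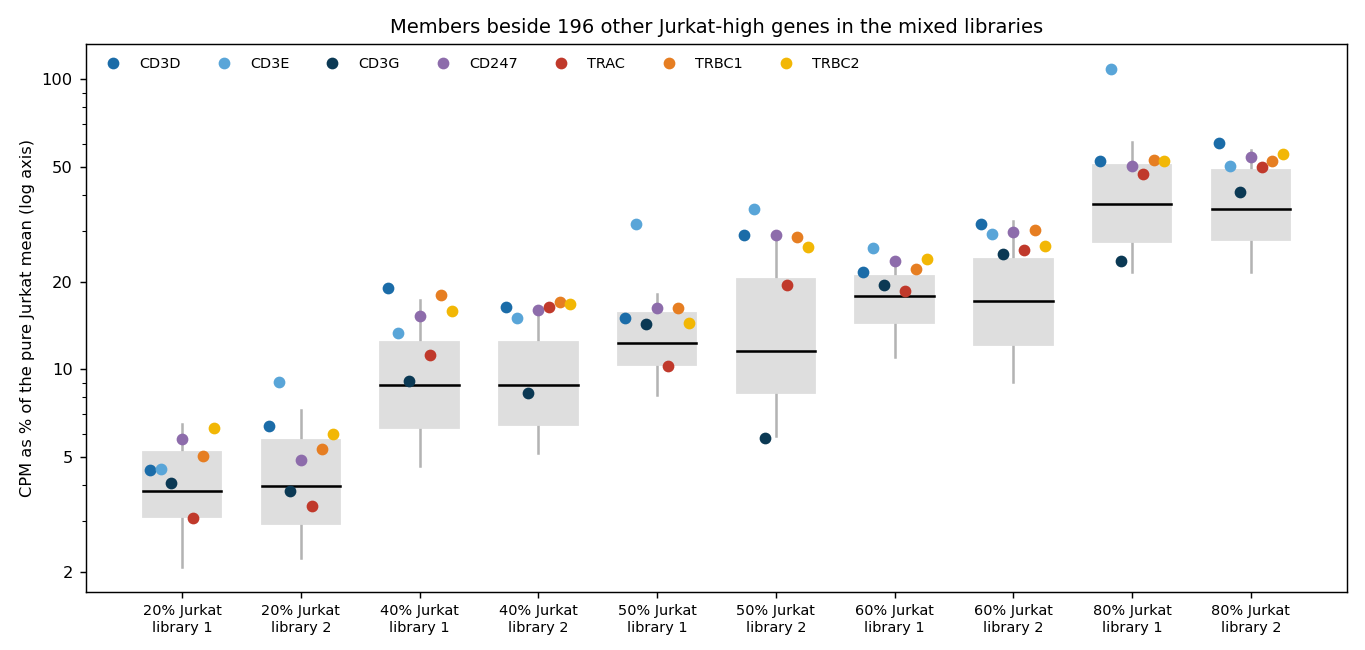
CPM as a percentage of the pure Jurkat mean (y, log axis) in the 10 mixed libraries (x). Grey boxes span the quartiles of 196 other Jurkat-high genes, black lines are their medians and grey lines run from the 10th to the 90th percentile, and coloured points are the 7 genes, most of which lie in the upper part of the box or above it, with CD3G lower.

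Counts for each 1000 spike-in counts give a scale on which every mixture started from equal numbers of cells. The summed counts of the 7 genes were 0.562 and 0.135 in pure HEK and 14.8 and 18.0 in pure Jurkat. They were 2.82 and 8.20 at 20% Jurkat, 5.78 and 10.4 at 40%, 9.17 and 7.03 at 50%, 12.7 and 13.0 at 60% and then 10.3 and 18.7 at 80%. In every condition except 50% and 60% the libraries differed by a larger factor on this scale than in CPM. For each percent of Jurkat cells the value was 0.148 and 0.180 in pure Jurkat and between 0.128 and 0.410 in the mixtures, both extremes being at 80% and 20%. Pearson's r with the percentage of Jurkat cells was 0.899 (permutation p = 5e-05, adjusted 6.7e-05) and rho 0.886 (permutation p = 0.0001, adjusted 0.00015) over 14 libraries, and 0.759 (permutation p = 0.011, adjusted 0.015) and 0.739 (permutation p = 0.022, adjusted 0.032) over the 10 mixed ones. Within the file name groups r was 0.694 over 8 libraries (exact permutation p = 0.062) and 0.781 over 6 (exact permutation p = 0.089), so the relation did not pass 0.05 within either. Over the means of the 7 conditions r was 0.978 (exact permutation p = 0.00079).

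Against the sum expected on this scale from the pure lines and the cell percentages, edgeR called 0 of 7 genes and 0.355% of all genes. The log2 differences ran from -0.11 (SE 0.42) for CD3G to 0.75 (SE 0.42) for CD3E, with adjusted p from 0.20 to 0.83. An unadjusted p under 0.05 was found for 0 of 7, against 28.3% of all genes, with 0.476% of all genes higher. The median difference of all genes was -0.59 on this scale, and relative to it all 7 genes lay higher. The 2 tests of mixing and the tests of the first and last step use the same pure libraries and are not independent of each other.

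**Figure D4:**
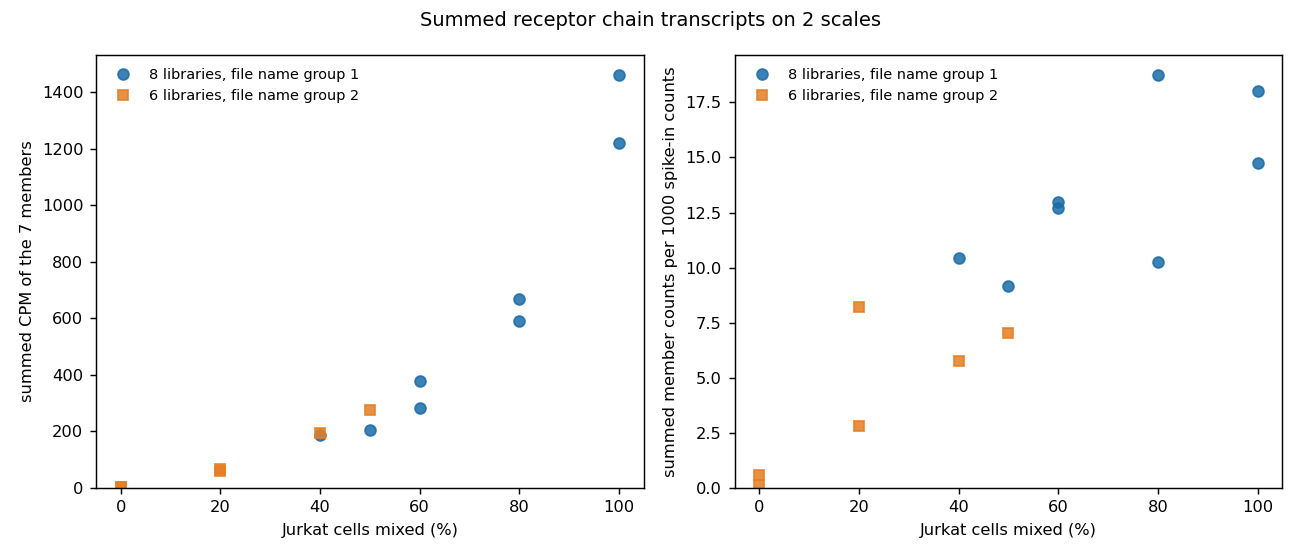
Summed CPM of the 7 genes (left) and their summed counts per 1000 spike-in counts (right) against the percentage of Jurkat cells, 1 point per library, with colour and shape for the file name group. On the left the values at 80% Jurkat (590 and 670 CPM) lie well below those of pure Jurkat (1222 and 1461 CPM), and on the right the values at 80% (10.3 and 18.7) span them.

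The last question was whether the chains kept their proportions. In the 12 libraries with Jurkat cells the median share of the summed CPM was 31.2% for TRBC1, 28.2% for CD3G, 21.6% for CD3D, 7.18% for TRAC, 6.25% for CD247, 3.09% for CD3E and 3.04% for TRBC2. These shares of counts are not per length. In TPM the medians were 32.5% for TRBC1, 27.4% for CD3G, 24.1% for CD3D, 6.14% for CD247, 5.70% for TRAC, 3.20% for TRBC2 and 1.79% for CD3E, so CD247 and TRAC, and TRBC2 and CD3E, changed places. TRBC1 ranged from 28.1% to 40.4%, CD247 from 5.67% to 8.24% and TRBC2 from 2.54% to 3.77%. CD3G ranged from 9.32% to 35.0% and CD3E from 2.71% to 7.21%, the widest ranges for their size. The low end of CD3G was the second library at 50% alone, and its next lowest share was 17.8%, in the first library at 80%. The ratio of CD3G to CD3D was 0.356 in the second library at 50% and 2.14 in the second pure Jurkat library, around a median of 1.31. The ratio of CD3E to CD3D ran from 0.111 to 0.332.

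Across the 14 libraries CD247, TRAC, TRBC1, TRBC2 and CD3D had pairwise r of CPM between 0.979 and 0.999. Within the 10 mixed libraries the lowest r was 0.565, between CD3E and CD3G, while CD3D and CD247 had 0.993. The libraries share the gradient of Jurkat cells, so high values are a description. TRBC2 took from 7.55% to 10.4% of the counts of TRBC1 and TRBC2 together in the 12 libraries. The split of the beta chain pair thus moved by under 3 percentage points.

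**Figure D5:**
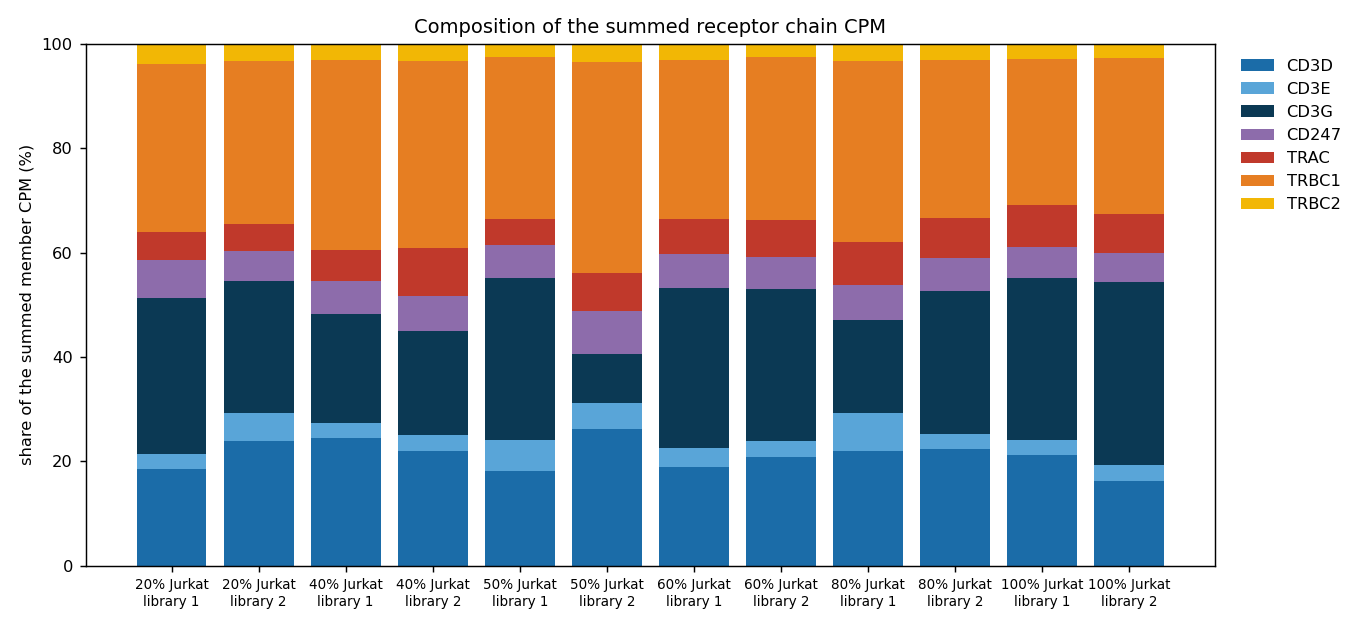
Share of the summed CPM (y, in percent) held by each of the 7 genes in the 12 libraries with Jurkat cells (x). CD3G takes 9.32% in the second library at 50% Jurkat and 35.0% in the second pure Jurkat library, and TRBC1 takes 28.1% to 40.4%.

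Among 9178 other genes with a mean of at least 10 CPM, the 5 whose CPM was most like the summed CPM over 14 libraries were IL2RG (r = 0.999), CERKL (0.998), CHI3L2 (0.997), MZB1 (0.995) and ICAM2 (0.995). In pure Jurkat they stood at 77.9, 70.6, 186, 90.3 and 65.5 CPM and in pure HEK at 0.225, 3.92, 0.139, 0.284 and 0.293 CPM. The median r of the 9178 genes was -0.24, and 24 of them had an r over 0.99. Over the 10 mixed libraries alone r was 0.994 for IL2RG, 0.997 for CERKL and 0.978 for ICAM2.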

How the data were processed

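RNA-seq of 14 libraries (7 conditions, 2 technical libraries each) was examined. The authors captured mRNA with oligo-dT beads, primed it with barcoded oligo-dT, pooled samples by Actb qPCR, aligned 40-base reads with STAR 2.6.1b and counted with RSEM 1.3.1, and deposited expected counts, which are not normalized. The TPM they deposited sum over genes together with spike-ins. The gene annotation release is not given in the sources used here. Genes were matched to GENCODE 44 on GRCh38.

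CPM were computed from expected counts over the 58440 genes without the 92 spike-ins, and counts were rounded for tests. edgeR 4.0.16 (glmQLFit, glmQLFTest, TMM, filterByExpr, Benjamini-Hochberg at 0.05) was used in R 4.3.3, with DESeq2 1.42.0 and limma 3.58.1 as alternatives. For additive mixing, the expected level (at least 0.2 CPM) entered as an offset, with pure libraries in the fit. The share of RNA was fitted by least absolute deviations of log2(CPM + 1). Correlations were tested two-sided by permutation. Fold intervals are exact 95% intervals on pooled counts. Libraries of every condition differed beyond sampling noise and each was counted.

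Named genes were the 7 members, list genes past the threshold with at least 10 CPM in a pure line (at most 6 a list, taken by role) with others given by counts, the top 3 segments per locus, the neighbouring protein-coding genes and the 5 genes most like the sum. Genes named outside this rule (such as CD4, MS4A1 and TRGC2) were chosen after their values were seen. Members and lists were chosen with earlier results of these data known. Library numbers within a condition follow the order of the records. The test of the pure lines and both tests of mixing were tried on simulated counts with a fixed spread. The tests of neighbouring percentages were not tried in this way. A few results of the lists are not reported here.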

Additional observations from a re-analysis of the deposited data

How the results depend on the processing

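Of the main values, 271 were counted as the same under the alternatives, 13 moved and 5 no longer passed. A count of called genes was the same if it stayed near the main count, so 5 against 7 was the same. A median share was the same within its SD over libraries. A correlation was the same if it kept its direction and side of the threshold. Of the values of single genes, 993 kept their direction and side of the threshold, 27 newly passed and 33 no longer passed. Another 12 changed sign, none of these past the threshold in either setting. In the pure lines 2 of 7 genes were called with Bonferroni adjustment, and all members tested (7, or 6 with TRBC1 and TRBC2 summed) under the other settings run, each left-out library included. For additive mixing, 2 of 7 were called with the share of RNA from the cell percentages and the spike-in coefficient and 0 under every other setting. Non-negative least squares put the share at 0 in 3 mixed libraries, and the log2 differences then rose as high as 5.46 (TRBC1) with 0 called. For the step from 20% to 40%, 5 were called without a low count filter and 5 by DESeq2, and leaving out each library gave 0 to 2 (2 and 1 without the first and the second library at 50%). From 40% to 50%, 1 was called without the filter (CD3E). From 60% to 80%, 5 were called without the filter and 6 by DESeq2, which called 1.52% of all genes higher. The share of all genes called without the filter at these steps is not given, so these counts cannot be set beside it. The same holds for the steps with a library left out, which leave 1 library in a condition. From 80% to 100% leaving out libraries gave 0 to 6, with 0 without the first library at 80% or the second pure Jurkat library and 1 without the second at 80%. From 0% to 20% the range was 5 to 7. The cause was not tested.

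Among the values that changed sign, the CD3G difference from the additive sum was -0.0143 with the share from other Jurkat-high genes and ran from -0.0701 to 0.348 with each library left out (negative without the second library at 60% or the first pure Jurkat library). Per spike-in count, CD3G was 0.0140 in the first file name group and ran from -0.299 to 0.141 with each library left out (positive without the second library at 50% or the second pure Jurkat library), and TRAC was -0.0547 in the second group. From 40% to 50%, leaving out each library gave log2 differences from -0.0109 to 0.690 for CD3D (negative without the second library at 50%), from -0.616 to 0.945 for CD3G (negative without the first at 50%) and from -0.214 to 0.525 for TRAC (negative without the second at 50% or the first at 40%). The values ran from -0.00430 without the second library at 80% to 1.11 for CD3E from 80% to 100%.

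The relation per spike-in count had r = 0.694 and rho = 0.655 in the first file name group (0.565 in its mixed libraries) and r = 0.781 and rho = 0.736 in the second. Leaving out each library gave r from 0.873 to 0.920 on this scale and from 0.867 to 0.906 in CPM. In TPM the median TRAC share was 5.70%, and that of CD3E was 1.79%. Depth limits the HEK side, where counts were at most 16. No paired analysis was possible because the numbers of the libraries come only from the order of the records.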
